A study of Mus musculus with 8 samples.

Results

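The vacuolar proton pump, or V-ATPase, was examined through 10 of its subunit genes in the forebrain of aged mice with amyloid pathology. The members are Atp6v0d1, Atp6v0d2, Atp6v0a1, Atp6v0a2, Tcirg1, Atp6v0c, Atp6v1a, Atp6v1b2, Atp6v1c1 and Atp6v1h, found by matching the Ensembl identifiers of the count table to these symbols. All 10 were among the 56748 genes of the table and among the 21588 genes abundant enough to be tested. TgCRND8 mice (Tg), which overexpress the amyloid precursor protein APP, were compared with their non-transgenic littermates (NTg), both aged 18 months. As background to the model, this line carries a mutant human APP transgene driven by the hamster prion protein promoter, which is active mainly in neurons, and the mouse App gene is left in place. Polyadenylated RNA came from frozen, pulverised forebrain, in 4 Tg and 4 NTg libraries of 57129090 to 65242741 counts. The labels name no treatment in either genotype. They do not state that every library came from its own animal, so p-values refer to the spread among libraries, which may be technical.

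The V-ATPase is a rotary motor that spends ATP to pump protons into lysosomes, endosomes, the Golgi apparatus, secretory granules and synaptic vesicles. A cytosolic sector, V1, splits ATP and turns a stalk, and a membrane sector, V0, carries the protons on a rotating ring of proteolipids against a fixed a subunit. Several subunits have paralogs. In neurons the acid interior drives the loading of transmitter into synaptic vesicles, and in microglia and other macrophages it activates the hydrolases that digest phagocytosed material. The a3 subunit (Tcirg1) and the d2 subunit (Atp6v0d2) are known from osteoclasts and macrophages and are called restricted subunits here. The other 8 members are general subunits found in most cells.

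The 8 neuronal markers, checked because the labelled tissue is forebrain, summed to 5722 to 6089 CPM (the count divided by the scaled library size) in NTg and 5280 to 5935 CPM in Tg. App, to which reads of the transgene can align in part, had 1390 to 1623 CPM in the NTg and 2532 to 2980 CPM in the Tg libraries (edgeR adjusted p = 0.00146), and the genotypes did not overlap. Within each genotype 1 library stood apart. In Tg replicate 1 the 10 microglial markers summed to 479 CPM, where the other Tg libraries had 754 to 842 CPM. Its red blood cell genes summed to 3003 CPM, against 448 to 732 CPM. Among its neuronal markers Slc17a7 was at 473 CPM, against 608 to 760 CPM, and Gad2 at 323 CPM, against 202 to 247 CPM. In NTg replicate 4 red blood cell genes summed to 3271 CPM, against 1282 to 1876 CPM in the other NTg libraries. Its counts also differed most from theirs (chi-square per degree of freedom 39.4 to 48.9, against 10.9 to 20.1 among the others). Results that rest on Tg replicate 1 are therefore also given without it.

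Short reads have to tell the paralogs apart, and the coding sequences of the d subunits in the GENCODE mouse release M21 transcripts show how far they can. Over their whole reading frames, of 1056 bases in Atp6v0d1 and 1053 in Atp6v0d2, 65.7% of aligned positions were identical and the longest identical run was 17 bases. No window of 75 bases, the read length, was shared between the transcripts of the d genes, nor between any pair among the 10. Outside the family, 9.24% of the windows of Atp6v0c also occur in its processed pseudogenes Atp6v0c-ps1 and Atp6v0c-ps2. Its counts are therefore uncertain, by a share of reads that was not measured. For Tcirg1 the share of windows found in any other gene was 0.255%, for Atp6v1a 0.147% and for the other members 0%. The library kit does not mark strand. Atp6v0a2 shares 9.9% of its exon bases with the antisense gene 4930404A12Rik and Atp6v1h shares 1.3% with Rgs20 on the opposite strand, and reads in those stretches cannot be told apart.

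Per kilobase of exon, the members differed widely in level in NTg forebrain, general subunits lying above the restricted ones. Atp6v0c, the proteolipid of the ring, was highest at 155 ± 9.44 CPM per kb (SD, n = 4). It was followed by Atp6v1b2, the nucleotide-binding B subunit of brain, at 121 ± 3.90 CPM per kb and Atp6v1a, the catalytic A subunit, at 107 ± 2.83 CPM per kb. Atp6v0d1, which couples the ring to the stalk, was at 98.2 ± 2.58 CPM per kb, and Atp6v0a1, the a subunit of synaptic vesicles, at 58.0 ± 3.06 CPM per kb. Atp6v1c1, a peripheral stalk subunit that governs reversible assembly, was at 46.4 CPM per kb, and Atp6v1h, which silences V1 sectors that have come off the membrane, at 17.9 CPM per kb. The lowest were Atp6v0a2, the a subunit of Golgi and endosomes, at 9.33 CPM per kb, Tcirg1 at 3.74 ± 0.339 CPM per kb and Atp6v0d2 at 0.0804 ± 0.0295 CPM per kb. No neighbours in this order overlapped between their 4 NTg libraries. The lengths pool the exons of all annotated transcripts, which lowers the value of genes with long rare exons.

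**Figure D1:**
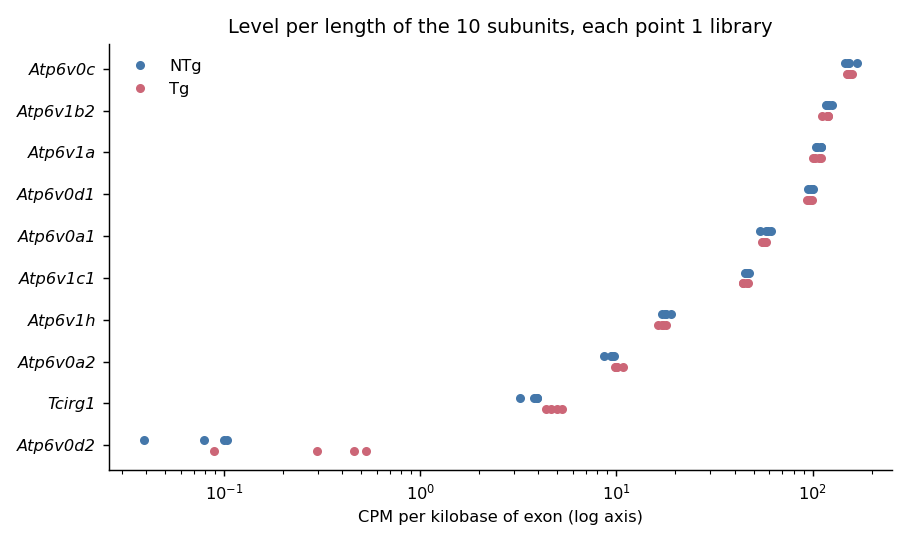
Level of each of the 10 subunits per kilobase of exon (log axis), with 1 point per library in NTg (blue) and Tg (red). The 8 general subunits lie above the restricted Tcirg1, at 3.74 CPM per kb in NTg, and Atp6v0d2, at 0.0804 CPM per kb.

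Between genotypes, the test of edgeR called 0 of the 10 members at an FDR of 0.05, where it called 0.0139% of all genes tested. At an unadjusted p under 0.05 it placed 3 of the 10, Atp6v0d2, Tcirg1 and Atp6v0a2, all higher in Tg, against 4.68% of all genes higher and 7.36% in either direction. DESeq2 called 2 of the 10, Atp6v0d2 and Tcirg1, both higher, against 1.23% of its genes called higher and 1.45% in either direction, and limma-voom called 0, against 0.0139%. The other 7 members had log2 fold changes (Tg over NTg) between -0.07 and -0.01. The median of the 10 was -0.03 and that of all genes tested -0.0024, with 50.8% of all genes below 0. All Tg libraries lay above all NTg libraries for 2 of the 10, Tcirg1 and Atp6v0a2, against 2.62% of all genes, and for 0 of the 10 they all lay below, against 1.58%.

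Tcirg1 encodes the a3 subunit, which anchors the pump in lysosomes and in the acid-secreting membrane of osteoclasts and whose loss causes osteopetrosis. Its NTg libraries, replicates 1 to 4, were at 18.2, 18.2, 17.5 and 14.9 CPM. Its Tg libraries, in the same order, were at 20.1, 24.2, 21.3 and 23.0 CPM. The genotypes did not overlap, and the lowest Tg library was replicate 1. The NTg mean was 17.2 ± 1.56 CPM and the Tg mean 22.2 ± 1.83 CPM (SD, n = 4 each), a log2 fold change of 0.36 (SE 0.08, edgeR adjusted p = 0.169, 95% interval 0.18 to 0.55). DESeq2 gave 0.36 (SE 0.09, adjusted p = 0.0122), and without Tg replicate 1 edgeR gave 0.41 (adjusted p = 0.0580). With each library left out in turn edgeR gave 0.30 to 0.41 (adjusted p = 0.0580 to 0.454), the lowest without NTg replicate 4. In whole tissue a greater number of cells of a type and more RNA per cell cannot be told apart, which holds for every difference here.

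Smaller differences were measured for the general a subunits. Atp6v0a2 was at 63.3, 64.2, 65.2 and 58.3 CPM in NTg and at 66.1, 66.7, 72.9 and 67.8 CPM in Tg. The genotypes did not overlap, and Tg replicate 3 was the highest library. The log2 fold change was 0.12 (SE 0.05, edgeR adjusted p = 0.620, 95% interval 0.01 to 0.24). Atp6v0a1, the most abundant a subunit and the one that rides on synaptic vesicles, was at 400.5, 379.8, 387 and 353 CPM in NTg and at 365, 373, 361 and 379 CPM in Tg. All of its Tg libraries lay inside the NTg range, and its log2 fold change was -0.04 (SE 0.05, edgeR adjusted p = 0.944).

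Atp6v0d2 encodes the d2 subunit, which osteoclasts need in order to fuse and which macrophages carry on lysosomes. It was the rarest member, with 13, 17, 6 and 16 counts in the NTg libraries and 16, 76, 83 and 47 counts in the Tg libraries. On the scaled level these were 0.215, 0.270, 0.107 and 0.282 CPM in NTg and 0.242, 1.25, 1.43 and 0.806 CPM in Tg. Tg replicates 2, 3 and 4 lay above every NTg library, while Tg replicate 1 lay inside the NTg range. The exact Poisson 95% intervals, which cover counting error only, were 0.138 to 0.392 CPM for Tg replicate 1 and 0.592 to 1.07 CPM for Tg replicate 4, the next lowest. The NTg mean was 0.218 ± 0.0801 CPM and the Tg mean 0.931 ± 0.529 CPM (SD, n = 4 each), a log2 fold change of 2.07 (SE 0.51, edgeR adjusted p = 0.206, 95% interval 0.92 to 3.22). Without Tg replicate 1 the log2 fold change was 2.39 (SE 0.32, edgeR adjusted p = 0.00742), the only member called in that fit, where edgeR called 1.43% of all genes and 1.26% of all genes higher. DESeq2 gave 2.08 (SE 0.52, adjusted p = 0.00754) with all libraries. With each library left out in turn edgeR gave 1.79 to 2.39 (adjusted p = 0.00742 to 0.515).

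Atp6v0d1, the general d subunit, did not pass the test. It was at 181, 176, 177 and 170.0 CPM in NTg and at 167, 173, 178 and 174 CPM in Tg. The genotypes overlapped, with a log2 fold change of -0.03 (SE 0.04, edgeR adjusted p = 0.960). The 95% interval of its change ran from -8.00 to 4.61%.

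None of the 5 members of the ring and the V1 sector passed the test. Atp6v0c was at 569, 493, 521 and 513 CPM in NTg and at 538, 506, 513 and 527 CPM in Tg. Atp6v1a was at 632, 637, 664 and 664 CPM in NTg and at 652, 609.8, 664 and 621 CPM in Tg. Atp6v1b2 was at 631, 642, 668 and 619.7 CPM in NTg and at 639, 591, 634 and 630.3 CPM in Tg. In each of these 3 genes the genotypes overlapped, and for both V1 genes the lowest Tg library was replicate 2. Atp6v1c1 was at 255, 253, 267 and 264 CPM in NTg and at 248, 249, 261 and 258 CPM in Tg. Atp6v1h was at 175, 171, 167 and 185 CPM in NTg and at 175, 158, 169 and 166 CPM in Tg. These stalk and regulatory subunits overlapped as well. Of the 5 genes Atp6v1h had the log2 fold change farthest from 0, at -0.07 (SE 0.05, edgeR adjusted p = 0.880), with a 95% interval of its change from -11.5 to 3.25%. For Atp6v0c the sign was not stable: it was -0.0080 with TMM scaling and 0.0165 with library totals alone.

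**Figure D2:**
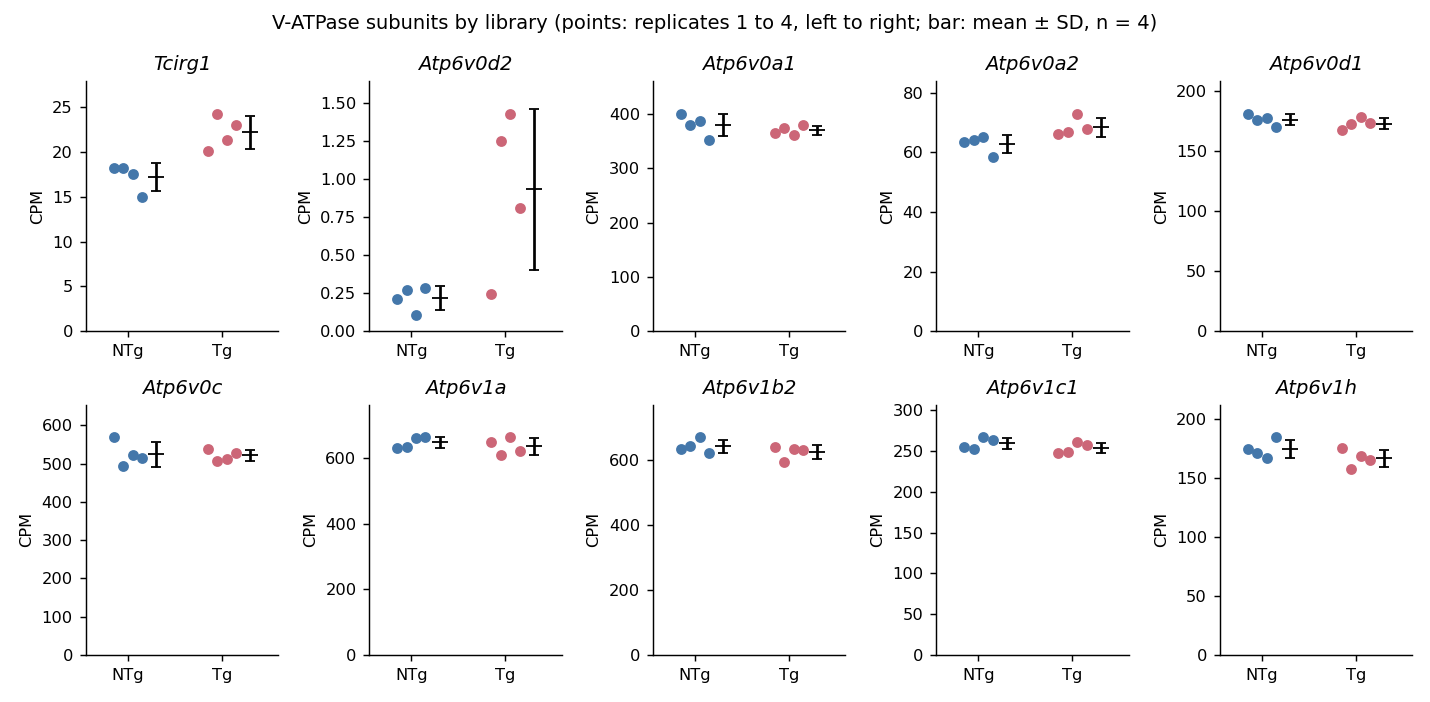
Level of each subunit in CPM in the 4 NTg (blue) and 4 Tg (red) libraries, with the mean and SD beside the points. Tcirg1 lies higher in all Tg libraries (20.1 to 24.2 CPM) than in all NTg libraries (14.9 to 18.2 CPM), Atp6v0d2 in 3 of the 4 Tg libraries, and the general subunits other than Atp6v0a2 overlap.

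Paralogous subunits were compared through 3 ratios taken within each library, by exact permutation of the genotypes, two-sided. The ratios of Tcirg1 and Atp6v0d2 set a restricted against a general subunit, and that of Atp6v0a2 to Atp6v0a1 compared general subunits. With 4 against 4 libraries p cannot go below 0.0286, and p-values were adjusted over the 3 ratios by Benjamini-Hochberg. The log2 ratio of Tcirg1 to Atp6v0a1 was -4.45, -4.38, -4.46 and -4.56 in NTg and -4.18, -3.94, -4.08 and -4.04 in Tg. It was higher in every Tg library than in any NTg library, by 0.40 on average (exact permutation p = 0.0286, adjusted p = 0.0429). In levels, Tcirg1 gave 4.53 CPM for every 100 CPM of Atp6v0a1 in NTg and 5.99 in Tg, not corrected for length. The log2 ratio of Atp6v0a2 to Atp6v0a1, both general subunits, was also higher in every Tg library, by 0.16 (exact permutation p = 0.0286, adjusted p = 0.0429). Its NTg libraries lay between -2.66 and -2.56 and its Tg libraries between -2.48 and -2.30. Both less abundant a subunits thus had a higher ratio to Atp6v0a1 in Tg, 1 of them restricted and 1 general.

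The log2 ratio of Atp6v0d2 to Atp6v0d1 was -9.17, -8.89, -9.75 and -8.80 in NTg and -8.94, -7.00, -6.86 and -7.58 in Tg, with 0.1 CPM added to both genes. Tg replicate 1 lay within the NTg range. The mean difference was 1.56, which did not pass the test (exact permutation p = 0.0857, adjusted p = 0.0857). It was 2.00 without Tg replicate 1, where 3 against 4 libraries cannot give a p below 0.0571, and it depended on the added value, at 0.94 with 0.5 CPM and 1.89 with 0.01 CPM.

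**Figure D3:**
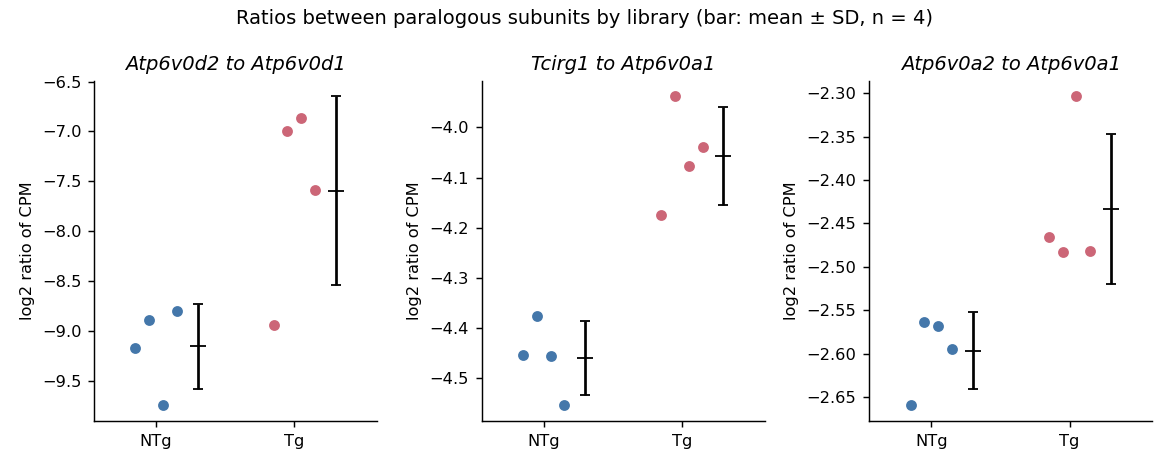
Log2 ratio of CPM between paralogous subunits in each library, NTg (blue) and Tg (red), with the mean and SD of 4 libraries. The ratios of Tcirg1 and of Atp6v0a2 to Atp6v0a1 are higher in all 4 Tg libraries, and that of Atp6v0d2 to Atp6v0d1 in 3 of them.

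Of the 15 other V-ATPase genes of the list, which complete the stalks, the ring and the accessory proteins, 11 were tested by edgeR. It called 0 of these, with 0 at an unadjusted p under 0.05, and DESeq2 called 0. Their log2 fold changes ran from -0.13 to 0.16 with a median of 0.0034, 6 above and 5 below 0. Atp6v1e1, a peripheral stalk subunit and the most abundant with Atp6ap1, had 318 to 325 CPM in the NTg and 294 to 315 CPM in the Tg libraries, without overlap (log2 fold change -0.05, edgeR adjusted p = 0.883). Atp6ap1, an accessory protein that guides the pump through the secretory pathway, had an NTg mean of 319.6 ± 4.66 CPM and a Tg mean of 318 ± 11.8 CPM (SD, n = 4). The lowest log2 fold change, -0.13 (SE 0.07), belonged to Atp6v1g2, a stalk subunit of neurons that is counted as general here.

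Among all 25 V-ATPase genes, 7 were counted as restricted. Of those, 4 were too low for edgeR to test with all libraries. These were Atp6v0a4, Atp6v1b1, Atp6v1e2 and Atp6v1g3, known from kidney, inner ear or testis. DESeq2 tested Atp6v0a4 and Atp6v1b1 and called neither. Atp6v0a4 had 35 counts in all NTg and 40 in all Tg libraries, and Atp6v1b1 had 37 and 20. Atp6v1e2 and Atp6v1g3 had 5 counts or fewer per genotype. The remaining restricted subunit, Atp6v1c2, had 0.793 to 1.39 CPM in the NTg and 0.617 to 2.29 CPM in the Tg libraries, with Tg replicate 1 the highest. Its log2 fold change was 0.16 (SE 0.39, edgeR adjusted p = 0.976), turning to -0.34 (SE 0.29) without that library. The 95% interval of its change, from -38.9 to 105%, is wide and holds the difference measured for Tcirg1. The 18 general subunits summed to 4762 to 4871 CPM in NTg and 4600 to 4771 CPM in Tg.

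**Figure D4:**
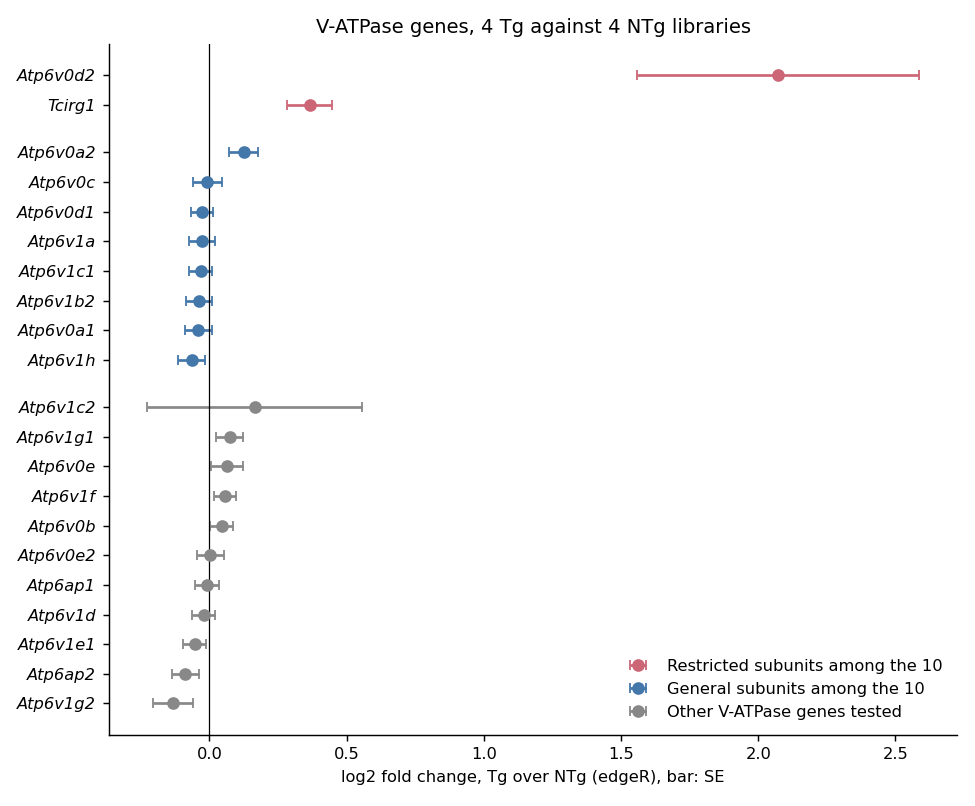
Log2 fold change of the 21 tested V-ATPase genes, Tg over NTg, with its SE from edgeR. Atp6v0d2 (2.07) and Tcirg1 (0.36) lie to the right of the general subunits, and edgeR called 0 of the 21.

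Genes that assemble, regulate or accompany the pump were not called either. All 13 assembly factors and regulators were tested, with a median log2 fold change of -0.02 (5 above and 8 below 0), and edgeR, DESeq2 and limma-voom called 0. Oxr1, a protein of the TLDc family that binds the pump and the most abundant of the list, had 303 to 336 CPM in the NTg and 281 to 341 CPM in the Tg libraries. Dmxl2, a subunit of the complex that reassembles the sectors, had means of 259 ± 2.65 and 251 ± 8.50 CPM (SD, n = 4). Of 10 ion channels and exchangers of endosomes and lysosomes, which carry the charge that balances pumped protons or release ions, 0 were called by the same tools, and the median was 0.04. Clcn3, a chloride-proton exchanger, was at 235 ± 7.85 and 222 ± 12.1 CPM, and Clcn4, its close relative, at 199 ± 8.57 and 198 ± 11.6 CPM. Of the 11 transcription factors of lysosomal genes and scaffold proteins that dock the nutrient-sensing kinase mTORC1 at the pump, 10 were tested and 0 were called, with a median of 0.04. Lamtor1, the anchor of that scaffold, was at 58.8 ± 2.09 and 58.7 ± 3.41 CPM, and Flcn, a regulator of the same kinase, at 52.2 ± 1.85 and 56.9 ± 3.85 CPM. In these 3 lists 0 genes reached an unadjusted p under 0.05 in edgeR.

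Many lysosomal genes are controlled by the transcription factor TFEB through an E-box, and the promoters of general and restricted subunits are shown here to set those letters beside the values above. RefSeq's promoter table on GRCm38.p6, 250 bases before to 50 after each start, held 5 of the 10 members, without Atp6v0d2, Atp6v0a2, Atp6v1b2, Atp6v1c1 and Atp6v1h. The motif TCACGTGA, searched on both strands and containing the shorter CACGTG, occurred in 2 of these, Atp6v0d1 and Atp6v1a, in 1 of the 14 other V-ATPase genes in the table, Atp6v0e, and in 0.974% of all 32851 promoters. The shorter CACGTG occurred in the same 2 members, in 2 of the 14 others, Atp6v0b and Atp6v0e, and in 7.15% of all promoters. The motif GAGGAAGT, a core bound by the myeloid factor PU.1, occurred in 0 of the 5, in 0 of the 14 others and in 3.20% of all promoters. V-ATPase genes are counted once whatever their number of starts, while the share of all promoters counts every start. Stretches of 60 bases, 5′ to 3′ on the strand of the gene and with TCACGTGA in capitals, are given for both genes with the motif and for Tcirg1, just upstream of 1 of its starts in the table, as a restricted member:
Atp6v0d1, chr8:105566061-105566120, minus strand: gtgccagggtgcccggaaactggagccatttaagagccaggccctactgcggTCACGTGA
Atp6v1a, chr16:44139358-44139417, minus strand: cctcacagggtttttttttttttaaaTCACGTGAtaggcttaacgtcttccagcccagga
Tcirg1, chr19:3907134-3907193, minus strand: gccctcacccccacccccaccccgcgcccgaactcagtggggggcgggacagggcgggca
The motif lies across the start of Atp6v0d1, from -4 to 4, and at -132 to -125 of Atp6v1a. Both genes are general subunits that did not pass the test, with log2 fold changes of -0.03. The 3 starts of Tcirg1 in the table had none of these motifs in the window searched, which says nothing of sites elsewhere. A match of letters is not a measured binding site.

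Markers of other cell types were also compared between the genotypes. All 10 microglial markers had a higher mean in Tg, with a median log2 fold change of 0.69. DESeq2 called 6 of them higher, against 1.23% of its genes. With all libraries edgeR called 0, against 0.0139% of all genes in either direction. It placed 10 at an unadjusted p under 0.05, against 4.68% of all genes higher. Without Tg replicate 1 edgeR called 8 of the 10, all higher, against 1.26% of all genes higher. Their summed level was 367 to 490.5 CPM in NTg and 479 to 842 CPM in Tg, a ratio of means of 1.75, while the ratio was 1.29 for Tcirg1 and 4.26 for Atp6v0d2. Library by library, the sum was 490.5, 373, 397 and 367 CPM in NTg and 479, 842, 777 and 754 CPM in Tg. The Tg library with the lowest sum, replicate 1, was also the lowest Tg library in Tcirg1 and Atp6v0d2 and in the general subunits Atp6v0d1, Atp6v0a2 and Atp6v1c1, while the other 5 members had theirs in replicate 2 or 3. The part of microglial number or state in these differences was not tested.

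With all libraries, edgeR called 0 genes in the other marker lists, against 0.0139% of all genes. To set beside the counts below, DESeq2 called 1.45% of its genes in either direction. At an unadjusted p under 0.05 edgeR placed 7.36% of all genes in either direction. Without Tg replicate 1 it called 1.43% in either direction. Border macrophage markers summed to 8.19 to 12.7 CPM in NTg and 7.44 to 14.0 CPM in Tg, with 0 of 5 called by DESeq2 and 0 at an unadjusted p under 0.05 in edgeR. Osteoclast markers, the cells for which both restricted subunits are best known, summed to 8.10 to 9.24 and 6.55 to 12.2 CPM. DESeq2 called 0 of the 7, and gave Ocstamp no adjusted p. Of the 6 tested by edgeR, 4 had log2 fold changes below 0, and the median was -0.08. Dcstamp, which drives the fusion of osteoclasts, had 0.124 to 0.207 CPM in the NTg and 0.275 to 0.720 CPM in the Tg libraries (log2 fold change 1.43, SE 0.34, edgeR adjusted p = 0.179), the only one of the list at an unadjusted p under 0.05. Its partner in fusion, Ocstamp, had too few counts to be tested. Choroid plexus markers, from an epithelium rich in acid pumps, summed to 593 to 917 CPM in NTg and 305 to 562 CPM in Tg, and DESeq2 called 3 of 5 lower (Ttr, Kl and Folr1), with 4 of 5 at an unadjusted p under 0.05 in edgeR. Endothelial markers summed to 153 to 188 and 116 to 162 CPM, with 0 of 5 called by DESeq2 and 3 lower at an unadjusted p under 0.05 in edgeR. Astrocyte markers summed to 3189 to 3851 and 3387 to 5240 CPM (Gfap and Aqp4 called higher by DESeq2, 2 of 6), with Gfap going from a mean of 431 to 1534 CPM and Slc1a2, the most abundant, from 1961 to 1772 CPM, and oligodendrocyte markers to 6494 to 8007 and 5601 to 6910 CPM (0 of 5). Red blood cell genes summed to 1282 to 3271 CPM in NTg and 448 to 3003 CPM in Tg (0 of 5 called by DESeq2). Without Tg replicate 1, the library with 3003 CPM, their log2 fold changes went from between -0.91 and -0.76 to between -2.42 and -1.79, and edgeR called 4 of 5 lower. In that fit it also called Kl and Prlr of the choroid plexus and Flt1 of the endothelium lower and Gfap higher, and 0 in the other lists of this paragraph. The part of these cells in the levels of the subunits was not tested.

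**Figure D5:**
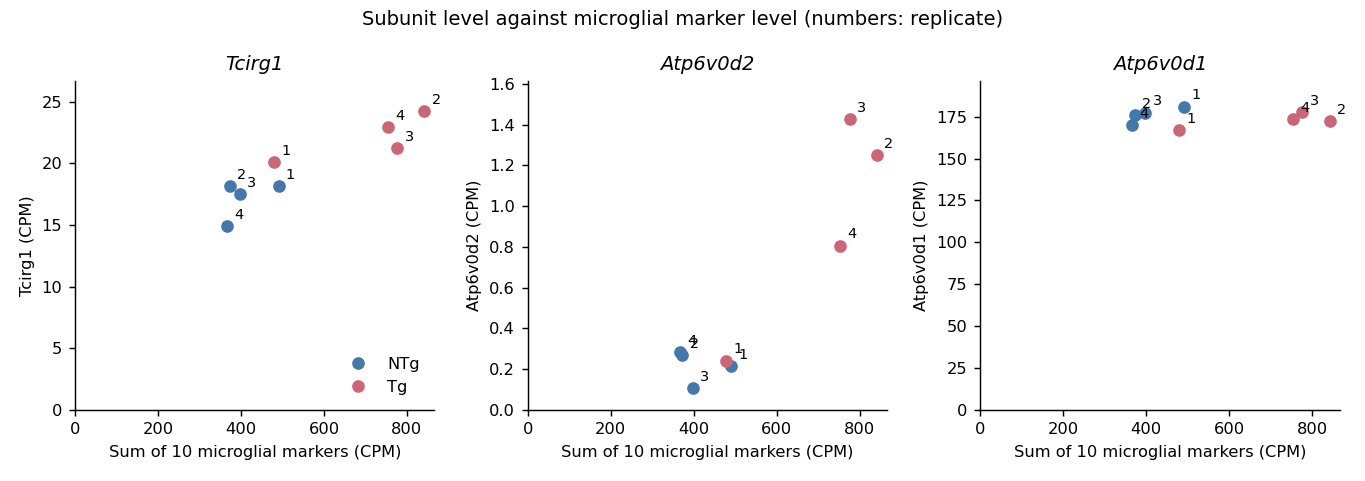
Level of Tcirg1, Atp6v0d2 and the general paralog Atp6v0d1 in CPM against the summed level of 10 microglial markers in CPM, with 1 point per library (NTg blue, Tg red) numbered by replicate. Tg replicate 1, at 479 CPM of markers, lies next to the NTg libraries in Atp6v0d2, and Atp6v0d1 stays between 167 and 181 CPM throughout.

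The genes closest to the restricted subunits across the 8 libraries were found by the root mean square difference of log2 CPM profiles, each set to 0 at its NTg mean, over 14098 genes with a mean of at least 1 CPM in a genotype. Nearest to Atp6v0d2 were Lilrb4a, an inhibitory receptor of myeloid cells (difference 0.396), Itgax, the integrin subunit CD11c (0.419), and Cd200r4, a myeloid receptor (0.424). Next came Gfap, the filament protein of reactive astrocytes (0.449), and Osmr, the oncostatin M receptor (0.458). Lilrb4a was at 1.77, 1.40, 1.12 and 1.66 CPM in NTg and at 2.43, 7.23, 6.23 and 3.67 CPM in Tg, a low replicate 1 in Tg being part of the profile on which these genes were matched. In each of these genes Tg replicate 1 still lay above every NTg library, whereas in Atp6v0d2 it lay inside the NTg range. Nearest to Tcirg1 were Agpat2, an acyltransferase of lipid synthesis (0.052), Syngr2, a vesicle protein (0.061), Stat3, the cytokine-activated transcription factor (0.067), Sugct, a mitochondrial enzyme (0.070), and Akr1b8, an aldo-keto reductase (0.071). Stat3 had means of 63.0 ± 3.98 CPM in the NTg and 81.8 ± 7.76 CPM in the Tg libraries (SD, n = 4), a log2 fold change of 0.38, and edgeR called 0 of these 10 genes. The likeness includes the difference between genotypes and is a description over 8 libraries.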

How the data were processed

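The authors deposited whole-number counts for each Ensembl gene, not normalized. The submitters' processing notes name STAR, DESeq2 and GRCm39. Which tool counted the reads, on which annotation and in which versions, is not given in the sources used here. Per the labels' protocols, libraries were made with a TruSeq kit and read as paired ends of 75 bases. Genes passing edgeR's filterByExpr (minimum count 10, total 15) entered edgeR's quasi-likelihood test with TMM scaling and Benjamini-Hochberg adjustment over all 21588 genes. CPM uses TMM-scaled library sizes, SE is the log2 fold change divided by the square root of F, and 95% intervals use its t distribution. DESeq2 with its own filtering tested 23862 genes. Versions were R 4.3.3, edgeR 4.0.16, DESeq2 1.42.0, limma 3.58.1 and scipy 1.17.1. The tests were first tried on counts simulated with edgeR's own dispersion estimates and no library set apart. There DESeq2 made more false calls than edgeR and also recovered more of the smaller changes. The simulation therefore does not decide between the tools for these data. Within a genotype, every pair of libraries differed by more than sampling noise. No row lacked an identifier and 0 columns belonged to other series. Exon lengths and transcripts came from GENCODE M21, on an older build than the counts. Alternatives were other scalings, filters and tests, robust dispersion, a replicate block, other pseudocounts and each library left out.

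The members and gene lists were chosen with earlier results of these data known. Named genes were the 10 members, the called or most abundant genes of each list, and the 5 nearest profiles. Other genes, Atp6v1g2, Atp6v1c2, the subunits too low for edgeR and Ocstamp among them, were named after their values were seen. Some items that were examined are not reported here.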

Additional observations from a re-analysis of the deposited data

Results flagged for a closer look

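In 48 groups of 4 libraries (the 21 tested V-ATPase genes and the 3 ratios, in each genotype), 5 held a library whose gap to its nearest neighbour exceeded the critical share of the group's range in Dixon's test, which chance does in about 1 of 20 groups. Atp6v0b, a proteolipid of the ring, was at 143 CPM in Tg replicate 4 and at 132 to 134 CPM in the other Tg libraries. Atp6v0e, a small membrane subunit, was at 25.8 CPM in NTg replicate 1 and at 23.0 to 23.2 CPM in the other NTg libraries. Atp6v1e1 was at 294 CPM in Tg replicate 2, against 313 to 315 CPM. Atp6ap2, the prorenin receptor and an accessory protein of the pump, was at 259 CPM in Tg replicate 3, against 235 to 238 CPM. The log2 ratio of Atp6v0a2 to Atp6v0a1 was -2.30 in Tg replicate 3, where the other Tg libraries had -2.48 to -2.46. Leaving it out gave a difference between genotypes of 0.12. These libraries are all different ones except Tg replicate 3, which appears in both of the last results.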

How the results depend on the processing

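The 10 log2 fold changes were recomputed under 169 combinations of member and alternative, of which 163 kept their direction and their side of the threshold. Atp6v0c turned to 0.0165 with library totals only, 0.0333 without NTg replicate 1 and 0.0054 without Tg replicate 2, within a range of -0.0358 to 0.0333 with a library left out. The number of members called, 0, became 2 with DESeq2, and was 0 to 1 with a library left out. The count over all genes, 3, was 127 with no filter on low counts, 345 with DESeq2 and 3 to 314 with a library left out: 16 without NTg replicate 1, 314 without Tg replicate 1 and 9 without Tg replicate 2. Atp6v0d2 was not tested with a minimum mean of 1 CPM. The replicate numbers did not pair the libraries (same-number correlations of deviations 0.0656, -0.0321, 0.155 and -0.00894). With the replicate block edgeR called 0 members and 1 gene in all, and the ratio differences stayed 1.56, 0.40 and 0.16, each with an adjusted p of 0.125, the smallest that 4 pairs allow. With a library left out the difference was 1.31 to 2.00 for the ratio of Atp6v0d2 to Atp6v0d1, 0.36 to 0.44 for Tcirg1 to Atp6v0a1 and 0.12 to 0.18 for Atp6v0a2 to Atp6v0a1, where the smallest p is 0.0571. Atp6v0d2 had 6 to 17 counts per NTg library, so its NTg level has the widest counting error of the members.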
